A study of Homo sapiens with 6 samples.

Results

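The genes described here encode the proteasome, its caps, its assembly factors and its inhibitor. They were taken as every row of the count files whose symbol begins with PSM, a letter from A to G and a digit. This gave 54 of 26364 rows: 48 proteasome genes, 5 antisense transcripts named after one of them, and PSMC3IP, a recombination factor that shares only the prefix. The rule used names and no measured value, but it was chosen with earlier results of these data known. Messenger RNA had been sequenced in ZR-75-30, an established human breast adenocarcinoma line with amplified ERBB2. Cells infected with the empty lentivirus pLVX (control, 3 libraries) were compared with cells infected with pLVX-CDK12 (3 libraries), which carries the transcriptional kinase CDK12. Both groups therefore carry a lentiviral vector, and the libraries of a group are called biological replicates without saying if each was its own infection, so p-values measure the spread between these libraries.

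The proteasome degrades proteins that carry ubiquitin chains. Its core particle is a barrel of stacked rings of alpha and beta subunits, in which 3 beta subunits cut peptide bonds. The regulatory particle caps the barrel: a ring of ATPases unfolds the substrate, and a lid removes the ubiquitin. Interferons induce a second set of catalytic subunits, which replace the standard ones to form the immunoproteasome and supply peptides for MHC class I. Dedicated chaperones build both particles and are not part of the finished complex.

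Of the 48 proteasome genes, 46 passed the filter on low counts, and small falls predominated among them. By edgeR's quasi-likelihood test, at a Benjamini-Hochberg adjusted p of 0.05 over all 14665 genes tested, 19 of the 46 were lower and 3 were higher in the CDK12 libraries. Among all genes tested, 18.9% were lower, 16.2% were higher, and 35.1% passed in either direction. Standard errors of the log2 fold change ran from 0.039 to 0.127 over the 46 genes and from 0.038 to 0.730 over all genes. Small folds pass more easily where the standard error is small. The part of this in the shares called was not tested. The median log2 fold change was -0.09 over the 46 genes and 0.00 over all genes tested. Each of the 19 lower genes fell by a small step, from 1.08-fold for PSMD14 to 1.19-fold for PSMB6. None of the 46 genes passed edgeR's test against a fold of 1.2, and 0 did so even at an unadjusted p of 0.05. Every estimated fold lay inside that bound, so these counts follow from the estimates and add nothing to them. Scaled by total counts alone, 4 of the 46 were higher and 14 lower, and over all genes 3324 were higher and 2064 lower, against 2371 and 2772 with TMM. Without control replicate 3, 12 genes were lower. Without control replicate 1, or without CDK12 replicate 1, 1 gene was higher, PSMB8.

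**Figure D1:**
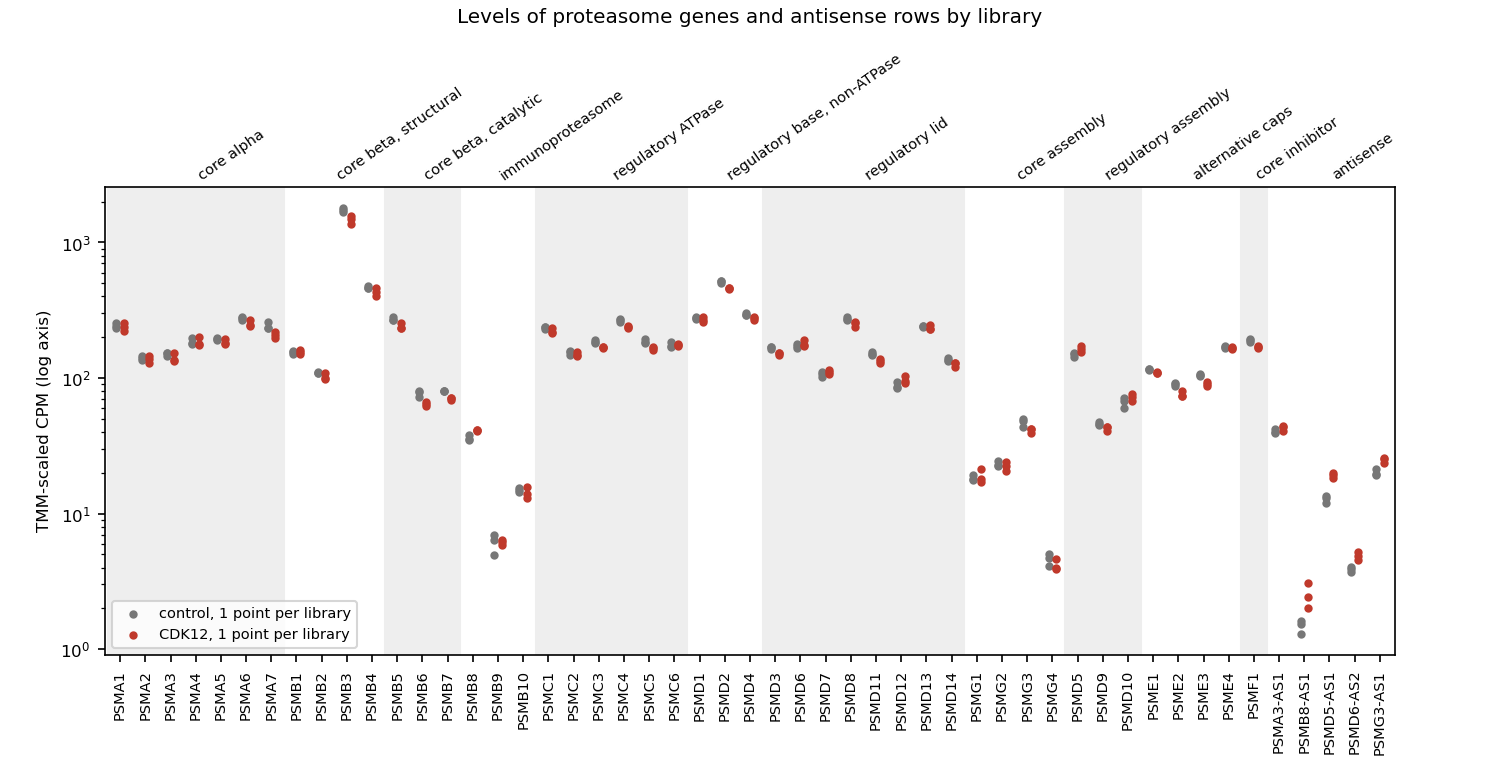
Levels of the 46 tested proteasome genes and 5 antisense rows, as CPM (counts divided by the TMM-adjusted size of the library) on a log axis, with 1 point for each library (control in grey, CDK12 in red), grouped by role. The group points of a coding gene lie close together, as for PSMB3 at 1676 to 1782 and 1367 to 1564 CPM, and PSMB8-AS1 and PSMD5-AS1 are the widest apart.

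The files held 21178163 to 26543653 counts per library, and levels are given as CPM after TMM scaling. CDK12 itself was at 72.8 to 81.8 CPM in the controls and at 2009 to 2240 CPM in the CDK12 libraries, which matches each label. Luminal epithelial markers summed to 13512 to 14151 CPM in controls and 11864 to 12414 CPM in CDK12 libraries. Most of this sum was ERBB2, with group means of 8656 and 7357 CPM. Of the 7 markers, 4 passed the test, all lower (57.1%, against 18.9% lower over all genes tested). EPCAM (log2 fold change -0.05), KRT19 (-0.08) and CDH1 (0.16) did not pass. The 5 leukocyte markers summed to 4.67 to 5.71 CPM in controls and 2.13 to 2.88 CPM in CDK12 libraries. Of these, PTPRC was lower (2.96 ± 0.11 to 0.358 ± 0.061 CPM, n = 3 per group; log2 fold change -3.02, edgeR adjusted p = 4.51e-11), CD68 did not pass, and CD3E had group means of at most 0.0442 CPM. The 5 fibroblast markers summed to 46.6 to 51.3 and 60.3 to 71.1 CPM, nearly all from COL1A1, which was higher (log2 fold change 0.40), while COL3A1 was lower (0.602 to 0.109 CPM, -2.44) and COL1A2 was at 0.296 and 0.0511 CPM, untested. The 3 endothelial markers summed to at most 2.84 CPM. Their part in the differences below was not tested. In RNA from whole cultures, fewer cells of a kind and less RNA per cell cannot be told apart.

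The alpha rings gate the barrel. All 7 alpha genes were tested, and 2 were lower, PSMA7 and PSMA6. PSMA7 was at 233, 233 and 257 CPM in the controls and at 219, 197 and 208 CPM in the CDK12 libraries. Its groups did not overlap (log2 fold change -0.22 ± 0.05 SE; edgeR quasi-likelihood, adjusted p = 0.000618). PSMA6 fell from 275 ± 7.23 to 253 ± 13.4 CPM (SD, n = 3 per group; log2 fold change -0.12, adjusted p = 0.031 by edgeR). CDK12 replicate 1, at 268 CPM, lay among the controls, which ran from 267 to 282 CPM. PSMA6 did not pass with total counts (adjusted p = 0.162), nor without control replicate 2 or 3 or CDK12 replicate 2 or 3 (0.0651 to 0.16). The other 5, PSMA1 to PSMA5, did not pass, with log2 fold changes between -0.09 and -0.01. The sum over the 7 genes overlapped between groups, at 1387 to 1453 CPM in controls and 1292 to 1432 CPM in CDK12 libraries.

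The beta rings hold the active sites. The 3 standard catalytic genes all fell. PSMB6, which encodes the caspase-like subunit, was at 78.4, 72.0 and 79.7 CPM in controls and at 67.0, 62.4 and 64.3 CPM in the CDK12 libraries (a log2 fold change of -0.25 ± 0.05 SE; edgeR adjusted p = 0.00031). PSMB7, of the trypsin-like subunit, stayed within 80.3 to 80.7 CPM in the controls and within 68.5 to 71.4 CPM in the CDK12 libraries (-0.19 ± 0.05 SE; adjusted p = 0.00169). PSMB5, of the chymotrypsin-like subunit that proteasome inhibitor drugs bind, was at 266, 267 and 282 CPM and then at 253, 233 and 233 CPM (-0.18 ± 0.04 SE; adjusted p = 0.00174). In none of the 3 did the groups overlap. Over the 46 tested proteasome genes the groups lay apart in 22, of which 20 were lower and 2 higher with CDK12. Across all genes tested the groups lay apart in 45.6%, lower in 23.6% and higher in 22.1%.

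Of the 4 structural beta genes, 2 were lower. PSMB3 fell from 1722, 1676 and 1782 CPM to 1564, 1367 and 1493 CPM without overlap (log2 fold change -0.23 ± 0.04 SE; edgeR adjusted p = 0.000256). PSMB4 fell from 468 ± 11.0 to 430 ± 31.4 CPM (-0.12 ± 0.05 SE; adjusted p = 0.0375). CDK12 replicate 1, at 463 CPM, lay among the control values of 459 to 480 CPM. PSMB4 did not pass with total counts (adjusted p = 0.176), with the DESeq2 Wald test (0.0565), or without any 1 library other than CDK12 replicate 1 (0.0523 to 0.285). PSMB2 (-0.11) and PSMB1 (0.00) did not pass. Over the 14 standard core genes, 7 were lower and 0 were higher by edgeR. At an unadjusted p of 0.05, 0 were higher as well, as by DESeq2 and limma-voom.

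**Figure D2:**
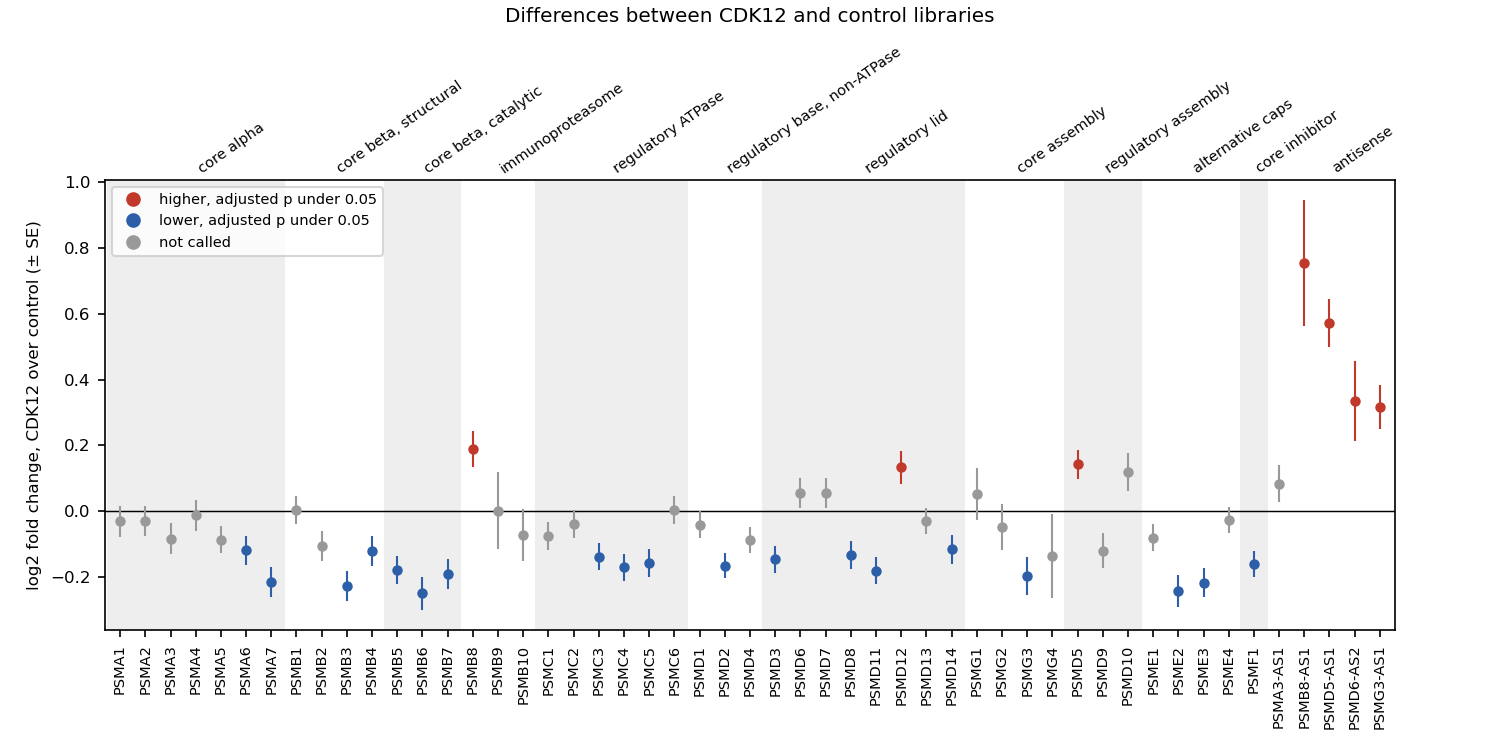
Log2 fold change of CDK12 over control with its standard error for each tested gene, by role; red and blue mark genes that passed an adjusted p of 0.05 by edgeR. The 3 catalytic core genes lie between -0.25 and -0.18, PSMB8 at 0.19, and 4 of 5 antisense rows lie above 0.3.

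Of the 3 immunoproteasome genes, 1 was higher and 2 did not pass. PSMB8, which takes the place of PSMB5, was at 35.5, 35.1 and 37.8 CPM in the controls and rose to 41.6, 40.7 and 41.3 CPM with CDK12. Every CDK12 library was above every control (log2 fold change 0.19 ± 0.06 SE; edgeR adjusted p = 0.00925). PSMB9, which takes the place of PSMB6, was at 6.94, 4.94 and 6.37 CPM and at 5.87, 6.34 and 6.17 CPM. The CDK12 values lay inside the range of the controls (0.00 ± 0.12 SE; adjusted p = 0.992). PSMB10, which takes the place of PSMB7, was at 14.5, 14.9 and 15.4 CPM and at 13.94, 13.02 and 15.67 CPM, with overlap (-0.07 ± 0.08 SE; adjusted p = 0.504).

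Set against its partner in the same library, which needs no scaling, PSMB8 had 13.3%, 13.1% and 13.4% of the counts of PSMB5 in the controls and 16.4%, 17.4% and 17.7% in the CDK12 libraries. The groups were apart by 0.37 on the log2 scale. The exact two-sided permutation test gave p = 0.1, and no smaller p is possible with 3 libraries in each group; adjusted over the 3 pairs it was 0.3, as for both other pairs. PSMB9 had 7.90 ± 1.00% of the counts of PSMB6 in the controls and 9.51 ± 0.71% with CDK12 (n = 3 per group), and control replicate 1, at 8.86%, lay above CDK12 replicate 1, at 8.77% (exact permutation p = 0.2). PSMB10 had 18.6 ± 0.52% and 20.2 ± 2.41% of the counts of PSMB7 (n = 3 per group), with overlap (exact permutation p = 0.3). The wide spread of the last comes from CDK12 replicate 3, at 22.9%; without it the log2 difference was 0.02, against 0.12 with all libraries.

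**Figure D3:**
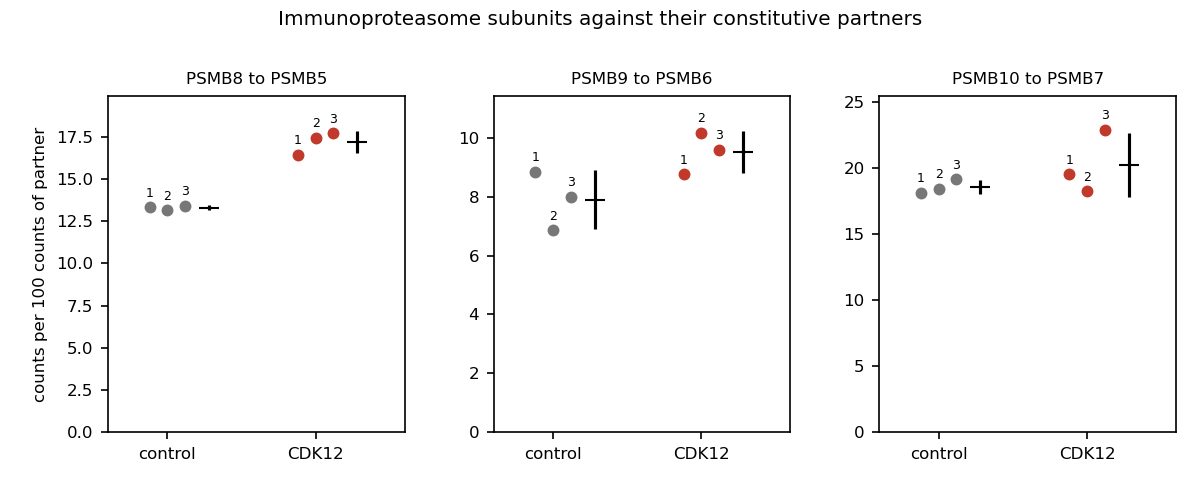
Counts of each immunoproteasome gene as a percentage of those of its constitutive partner, in each library (numbered by replicate), with the group mean and SD in black. For PSMB8 the CDK12 libraries lie at 16.4 to 17.7 and the controls at 13.1 to 13.4; the other pairs overlap.

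PSMA8 and PSMB11, which encode core subunits of testis and thymus, did not pass the filter. PSMA8 had 0, 1 and 1 counts in the controls and 0, 1 and 0 in the CDK12 libraries. PSMB11 had 0 counts in each control and 3, 0 and 1 in the CDK12 libraries. A count of 0 allows up to 0.113 to 0.142 CPM, depending on the library, for counting error only, so no difference was detectable at this depth.

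In the regulatory particle, 8 of 17 subunit genes were lower and 1 was higher. Of the 6 ATPases, 3 were lower: PSMC4 (272, 260 and 269 CPM to 242, 237 and 233 CPM; log2 fold change -0.17), PSMC5 (-0.16) and PSMC3 (-0.14). Their edgeR adjusted p-values were 0.00142, 0.00429 and 0.00869, and none of the 3 showed overlap. Without control replicate 3 neither PSMC5 (adjusted p = 0.0546) nor PSMC3 (0.0693) passed, and PSMC3 did not pass with total counts (0.0617). PSMC1, PSMC2 and PSMC6 had log2 fold changes between -0.08 and 0.00 and did not pass. Of the 3 scaffold and ubiquitin receptor genes of the base, PSMD2, a large scaffold, fell from 515 ± 8.13 to 459 ± 5.77 CPM (n = 3 per group; -0.17 ± 0.04 SE; edgeR adjusted p = 0.00137). PSMD4, a ubiquitin receptor, and PSMD1, the other scaffold, did not pass (-0.09 and -0.04).

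The lid went both ways. PSMD11 was at 149, 154 and 151 CPM in controls and at 138, 130 and 133 CPM with CDK12, without overlap (log2 fold change -0.18 ± 0.04 SE; edgeR adjusted p = 0.00142). PSMD3 (-0.15, adjusted p = 0.0063), PSMD8 (-0.13, 0.0154) and PSMD14 (-0.12, 0.0409), the last encoding the enzyme that removes ubiquitin chains, were lower too. PSMD8 did not pass with total counts (adjusted p = 0.094), nor when control replicate 3 or CDK12 replicate 2 was left out (0.111 and 0.12), and PSMD14 was lost with total counts, with either other filter on low counts, with the DESeq2 Wald test, and without control replicate 1, 2 or 3 or CDK12 replicate 3. PSMD12 was higher, at 84.8, 94.0 and 85.7 CPM in controls and at 103, 95.4 and 91.4 CPM with CDK12 (0.13 ± 0.05 SE; edgeR adjusted p = 0.0391). Control replicate 2 lay above CDK12 replicate 3, and PSMD12 did not pass with the replicate number as a block (adjusted p = 0.0516). It did not pass without control replicate 1 (adjusted p = 0.176), control replicate 3 (0.134), CDK12 replicate 1 (0.18) or CDK12 replicate 2 (0.0516), nor with the DESeq2 Wald test. PSMD6, PSMD7 and PSMD13 did not pass, with log2 fold changes from -0.03 to 0.06.

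The libraries of a group differed among themselves across the subunits, and this bears on every count above. Over the 31 standard core and regulatory genes, the median log2 level against the control mean was -0.03, 0.01 and 0.02 in control replicates 1 to 3. In CDK12 replicates 2 and 3 it was -0.13 in both, but in CDK12 replicate 1 it was -0.02, above control replicate 1. CDK12 replicate 1 was the highest CDK12 library for 25 of the 31 genes, while it was so for 34.99% of all genes tested. Control replicate 1 was the lowest control for 26 of the 31, against 32.3% of all genes tested. Without CDK12 replicate 1 the median over the 46 genes was -0.13 and 23 were lower; without control replicate 1 the median was -0.10 and 17 were lower. CDK12 replicate 1 also stood apart over genes at large. The chi-square per degree of freedom for sampling noise was 4.54 and 4.43 against CDK12 replicates 2 and 3. It was 2.74 between CDK12 replicates 2 and 3, and 2.90 to 2.94 between controls. What sets these libraries apart was not tested.

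**Figure D4:**
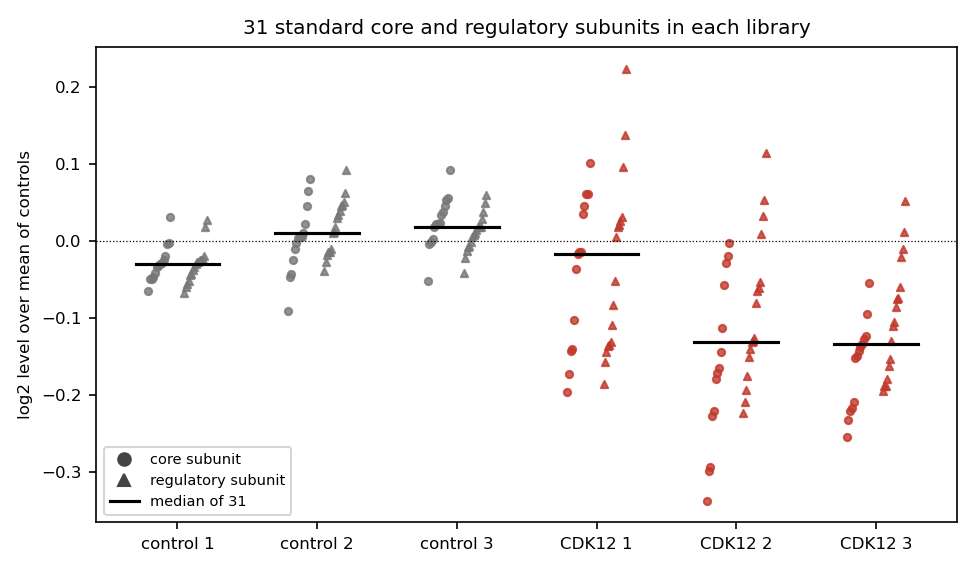
Level of each of the 31 standard core (circles) and regulatory (triangles) genes in each library, as log2 of the level over the mean of the 3 controls; black bars are medians. CDK12 replicates 2 and 3 have medians of -0.13, while CDK12 replicate 1 lies at -0.02, within the range of the controls.

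Of the 7 assembly factor genes, 1 was higher and 1 lower, a share of 28.6%, near the 35.1% called over all genes; with total counts 2 were higher and 1 lower. Of the 4 core chaperone genes, PSMG3 was lower, at 43.5, 48.2 and 49.6 CPM in the controls and 42.0, 39.5 and 41.8 CPM in the CDK12 libraries (a log2 fold change of -0.20 ± 0.06 SE; edgeR adjusted p = 0.00873). It did not pass without control replicate 3 (adjusted p = 0.0762). PSMG1, PSMG2 and PSMG4 did not pass, with log2 fold changes from -0.14 to 0.05. Of the 3 chaperones of the regulatory base, PSMD5 was higher, at 143, 154 and 150 CPM in controls and 173, 163 and 157 CPM with CDK12 (0.14 ± 0.04 SE; edgeR adjusted p = 0.0148). It did not pass without control replicate 1 (adjusted p = 0.107) or without CDK12 replicate 1 (0.0684). PSMD10, the oncoprotein gankyrin, and PSMD9 did not pass (0.12 and -0.12).

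The alternative caps open the barrel without ATP. PSME2, a subunit of the interferon-inducible cap, fell from 91.6, 86.9 and 90.6 CPM to 80.1, 73.1 and 74.0 CPM (log2 fold change -0.24 ± 0.05 SE; edgeR adjusted p = 0.000233). PSME1 encodes the other subunit and is separated from PSME2 by 1 coding gene in RefSeq. It was at 116, 116 and 115 CPM and at 109, 110 and 110 CPM, without overlap, but did not pass (-0.08 ± 0.04 SE; adjusted p = 0.134). PSME3, of the nuclear cap, fell from 105 ± 2.48 to 90.6 ± 3.09 CPM (n = 3 per group; -0.22 ± 0.04 SE; edgeR adjusted p = 0.000409). PSME4, of the large nuclear activator, was at 170 ± 3.45 and 166 ± 1.56 CPM (-0.03, adjusted p = 0.647). PSMF1, which encodes an inhibitor of the core, fell from 190 ± 3.77 to 170 ± 2.595 CPM (-0.16 ± 0.04 SE; adjusted p = 0.00278).

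Of the 5 antisense rows, 4 were higher with CDK12 and PSMA3-AS1 did not pass (log2 fold change 0.08). PSMD5-AS1 rose from 13.05, 12.04 and 13.48 CPM to 19.1, 19.9 and 18.4 CPM (0.57 ± 0.07 SE; edgeR adjusted p = 8.58e-07). PSMB8-AS1 was at 1.54, 1.29 and 1.62 CPM and at 3.09, 2.02 and 2.42 CPM (0.75 ± 0.19 SE; adjusted p = 0.00286). PSMG3-AS1 (0.32) and PSMD6-AS2 (0.34) were also higher. In none of the 4 did the groups overlap. Of their coding partners, PSMD5 and PSMB8 were higher, PSMG3 was lower and PSMD6 did not pass. Among all 368 antisense symbols tested, 80 were higher and 8 lower. The strand setting of the counting is not given in the sources used here, so reads of an antisense row and of its coding partner cannot be told apart where they overlap. PSMB8-AS1 overlaps PSMB8, PSMB9 and TAP1 in GENCODE 29, and PSMB9 overlaps PSMB8 and TAP1, so the same limit holds for these genes. The group means of PSMB8-AS1, 1.485 and 2.51 CPM, stand beside 36.1 and 41.2 CPM for PSMB8. PSMC3IP did not pass (-0.11, adjusted p = 0.666).

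Levels of different genes can be compared only per length, so the control levels were divided by the length of each gene's exons in GENCODE 29 on GRCh38. The counts were made on hg19, so these lengths are approximate. On that scale the 31 standard genes ran from 20.0 CPM per kb for PSMD12 to 2234 for PSMB3, around a median of 94.1. PSMB3 was 23.7-fold above that median, and PSMB4, next in order, 5.16-fold. Of the 3 immunoproteasome genes, PSMB10 at 12.3 ± 0.35 and PSMB9 at 6.61 ± 1.12 CPM per kb (n = 3) lay below every standard gene. PSMB8, at 23.3 ± 0.95 CPM per kb (n = 3), lay at the low end of their range, above PSMD12 and PSMB2 (22.7). With the median length of a gene's transcripts in place of its exon union, an alternative chosen after seeing the data, PSMB3 was 17.6-fold above the median and stayed first, while PSMA4 moved from 0.42 to 1.56 times the median. In RefSeq PSMB3 is separated from the amplified ERBB2 by 21 coding genes and from CDK12 by 14. PSMD3, with 8 coding genes between it and ERBB2, was at 77.8 CPM per kb, below the median. The part of gene copy number in these levels was not tested.

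**Figure D5:**
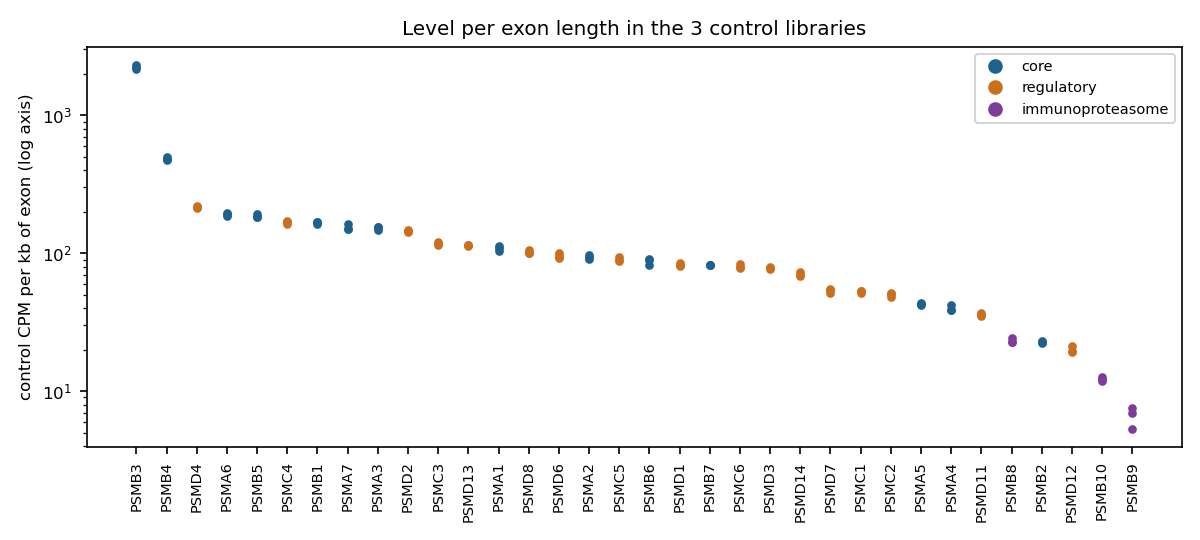
Control levels per kb of exon (log axis), with 1 point for each of the 3 control libraries, for the 31 standard subunits and the 3 immunoproteasome genes in descending order. PSMB3 lies at the top near 2234, and PSMB10 and PSMB9 lie at the bottom.

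Some subunits have pseudogene copies that could share their reads. GENCODE 29 names 13 pseudogenes of PSMC1, 4 of PSMA6, 3 each of PSMA2 and PSMD10 2 of PSME2, and 1 each of PSMA3, PSMB3, PSMB7, PSMD4, PSMD7, PSMD8 and PSMD12. How the counting treated reads that fit several places is not given in the sources used here, so the levels of these genes are less certain.

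Start sites were searched for the letters of known control elements, because interferon-induced and oxidant-induced factors act on proteasome genes. RefSeq windows on GRCh38.p14, from 250 bases before to 50 after a start, were available for 42 of the 48 genes; PSMA7, PSMB1, PSMB6, PSMB7, PSMD4 and PSMG3 had none. The core of the interferon-stimulated response element, searched as GAAA, any 2 bases and GAAA again on either strand, was in 7 of 42 genes (16.7%), against 4.38% of all 27305 genes with a window. All 7 are shown 5′ to 3′ on the gene's strand, because they hold 4 of the 5 interferon-induced members (PSMB8, PSMB10, PSME1 and PSME2). Capitals mark the match.
PSMB8 (chr6:32844032-32844061, minus strand): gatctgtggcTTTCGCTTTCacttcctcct
PSMB10 (chr16:67936852-67936881, minus strand): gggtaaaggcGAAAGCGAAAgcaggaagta
PSME1 (chr14:24136189-24136218, plus strand): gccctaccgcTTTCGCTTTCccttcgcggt
PSME2 (chr14:24146619-24146648, minus strand): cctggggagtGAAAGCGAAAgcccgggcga
PSMG4 (chr6:3258904-3258933, plus strand): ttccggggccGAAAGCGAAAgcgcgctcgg
PSMA4 (chr15:78540155-78540184, plus strand): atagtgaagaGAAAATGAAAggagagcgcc
PSMB4 (chr1:151399495-151399524, plus strand): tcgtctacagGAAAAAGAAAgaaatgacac
The genes with these letters did not move together: PSMB8 was higher, PSME2 and PSMB4 were lower, and PSMB10, PSME1, PSMG4 and PSMA4 did not pass. PSMB9, the fifth interferon-induced member, has no such match in its window. Among all 430 tested genes with the letters, 69 were higher and 122 lower.

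The antioxidant response element, TGACNNNGC on either strand, which NFE2L1 and NFE2L2 bind, was in 15 of the 42 genes (35.7%), against 16.1% of all genes with a window. Of these 15, 5 were lower, 2 were higher and 8 did not pass, while of all 2089 tested genes with the letters 339 were higher and 419 lower. Matches of 3 lower core and regulatory genes and of both higher genes are shown, since the same letters stand beside changes in both directions.
PSMB3, lower (chr17:38752627-38752656, plus strand): gcctccgtttTGACTTTGCaaccaaactac
PSMC5, lower (chr17:63827654-63827683, plus strand): gaccggatctGCTGTGTCAgcgccgccctc
PSMD3, lower (chr17:39980760-39980789, plus strand): tcccctttgtTGACTCGGCcatcggcctgc
PSMD5, higher (chr9:120843037-120843066, minus strand): tggctacagtTGACACGGCcctaacggagg
PSMD12, higher (chr17:67366723-67366752, minus strand): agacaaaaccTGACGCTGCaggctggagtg
A match describes the letters alone. The gamma interferon element TTCNNNGAA was in 8 of the 42 genes (19.0%, against 9.38% of all). Of the 7 that were tested, 5 were lower, 1 was higher and 1 did not pass, while of all 942 tested genes with it 203 were lower and 169 higher. The CCAAT box was in 20 (47.6%, against 39.7%). Of the 19 tested, 8 were lower and 11 did not pass, while of all 4585 tested genes with it 992 were lower and 713 higher.

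Genes that work with the proteasome but fall outside the symbol rule were read from fixed lists. These lists were chosen with earlier results of these data known. The shares called in them, here and below, are therefore descriptions and not tests. The share called was 18.2% of further subunits and partners, 30.0% of delivery factors and 36.4% of ubiquitin genes and enzymes, all lower. Over all genes tested 35.1% were called, 18.9% lower and 16.2% higher. Of 11 further subunits and partners, 2 were lower, both of them subunits of the regulatory particle: ADRM1, a ubiquitin receptor (159 ± 4.83 to 142 ± 6.69 CPM, n = 3 per group; log2 fold change -0.17, edgeR adjusted p = 0.00398), and SHFM1, now named SEM1 (-0.14, 0.0406). The other 9 did not pass. SHFM1 was also lost with total counts (adjusted p = 0.154) and without control replicate 1 or 3 or CDK12 replicate 2 or 3 (0.08 to 0.182). Of 10 factors that deliver substrates, 3 were lower. UFD1L fell from 90.1 ± 1.81 to 75.4 ± 2.66 CPM (-0.26), VCP, the unfolding ATPase with which UFD1L works, from 639 ± 7.85 to 572 ± 6.08 CPM (-0.16), and the shuttle UBQLN2 fell by 0.15 on the log2 scale. UBQLN2 did not pass without control replicate 1 (adjusted p = 0.0888) or with total counts (0.0653). Of 11 ubiquitin genes and enzymes, 4 were lower, among them UBA1, the main activating enzyme (-0.22), and 7 did not pass.

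Of 11 genes that control proteasome transcription, the factors themselves and the proteins that process or restrain them, 3 were higher and 3 lower. That is 54.5% called, against 35.1% over all genes tested. NFE2L1, named here outside the rule as the factor that restores proteasome synthesis when activity drops, was at 5538 ± 67.2 and 5521 ± 204 CPM (n = 3 per group; log2 fold change 0.00, edgeR adjusted p = 0.947). Its relative NFE2L3 rose from 21.2 ± 0.46 to 27.4 ± 2.57 CPM (0.37, adjusted p = 0.000173). Of the small MAF partners, MAFG (0.19) was higher and MAFF (-0.34) and MAFK (-0.29) were lower. The repressor gene BACH1 (0.20) was higher and KEAP1, of the adaptor that targets NFE2L2 for degradation, lower (-0.14). BACH1 did not pass without control replicate 2 or 3 or CDK12 replicate 2 (adjusted p = 0.0818, 0.126 and 0.0844), nor with the DESeq2 Wald test (0.107). KEAP1 did not pass with total counts (0.0922), nor when control replicate 1, control replicate 3 or CDK12 replicate 2 was left out (0.0544, 0.14 and 0.0774).

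The route that carries proteasome peptides to MHC class I was likewise split, with 4 of 14 genes higher and 4 lower. That is 57.1% called, against 35.1% over all genes tested. TAP1, the peptide transporter gene that lies next to both PSMB8 and PSMB9 among the coding genes of RefSeq, fell from 58.2, 51.2 and 52.8 CPM to 40.0, 39.3 and 40.7 CPM (log2 fold change -0.43 ± 0.06 SE; edgeR adjusted p = 7.21e-07). It thus fell where PSMB8 rose and PSMB9 did not pass. TAP2 (-0.40) and the chaperone gene CALR (-0.19) were lower, while ERAP2, a peptide trimming enzyme (0.29), and B2M (0.28) were higher. Of 13 interferon signalling genes, 8 were lower (61.5%, against 18.9% of all genes tested) and 5 did not pass. The lower genes included IRF9 (log2 fold change -1.71) and STAT2 (-0.46).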

How the data were processed

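The members and gene lists were chosen with earlier results of these data known. RNA sequencing libraries, 3 control and 3 CDK12, were deposited as unnormalized read counts, 1 file per library with a gene symbol in each row. CASAVA 1.8, STAR 2.6.0c, Subread 1.6.2 (featureCounts) and build hg19 are named, per the submitters' processing notes. Not given in the sources used here are the strand setting, the annotation and the handling of multi-mapped reads.

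Genes were filtered with filterByExpr of edgeR 4.0.16 (minimum count 10, minimum total 15), scaled by TMM and tested by edgeR's quasi-likelihood F test, two-sided, with Benjamini-Hochberg adjustment over all genes at 0.05. SE is the log2 fold change divided by the root of F. DESeq2 1.42.0 and limma 3.58.1 (voom) served as alternatives. The edgeR test was also run on simulated counts with planted folds of 1.2 and above. Smaller folds, such as those of the called proteasome genes, were not simulated. Libraries of a group differed by more than sampling noise (chi-square per degree of freedom 2.74 to 4.54 over genes). The highest values were those of both pairs with CDK12 replicate 1. Deviations of same-numbered libraries had correlations of -0.07, 0.06 and 0.03, so the numbers were not taken as pairs. Named genes were the immunoproteasome genes, their partners, PSME1, PSME2, CDK12, and up to 3 called genes of smallest p per direction in each role or list; other members are given beside them. A few genes of the fixed lists are not reported here.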

Additional observations from a re-analysis of the deposited data

How the results depend on the processing

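With DESeq2 size factors, limma-voom or the CDK12 row left out, the 22 proteasome genes called by edgeR were all called in the same direction. With upper-quartile factors or total counts 17 of the 22 were, and PSMA6, PSMB4, PSMC3, PSMD8 and PSMD14 were not. TMM factors differed between the groups (0.985 to 0.986 in controls, 1.014 to 1.016 with CDK12). Total counts moved the members' median log2 fold change from -0.0873 to -0.0451. It lay 0.09 below the median of all genes with each of the 4 scalings. A change of scaling shifts all genes by about the same amount, so this gap could not change and tests nothing. Leaving out 1 library at a time gave 1 to 4 higher and 12 to 23 lower proteasome genes, with medians of -0.13 to -0.07. Against a fold of 1.2, 0 members passed in either direction, since all their estimates lay inside it, and 459 higher and 479 lower genes did over all. The DESeq2 Wald test, run with its own scaling and filter (22380 genes with a p, against 14665), called 1496 genes higher in place of 2371, and 2 higher and 17 lower members. Over the fixed pathway lists, 7 genes were higher and 24 lower, and with total counts 11 were higher. The replicate block gave 2 higher and 19 lower members and changed, among named genes, the call of PSMD12 alone. Among 51 named genes and all settings, 710 of 764 values kept direction and call, 51 lost the call, and 3, all of PSMB9, turned sign without a call (-0.12, -0.02 and -0.00 without control replicate 2, CDK12 replicate 2 and CDK12 replicate 3). The ratios of PSMB8, PSMB9 and PSMB10 to their partners kept a positive log2 difference in every setting run (0.35 to 0.40, 0.17 to 0.36 and 0.02 to 0.19 when a library was left out), in a design that cannot reach 0.05. The cause of these shifts was not tested.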
